A study of Mus musculus with 18 samples.

Results

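TUBO mammary tumors from mice given HER2 DC1 together with an antibody against semaphorin 4D were compared with tumors from mice given HER2 DC1 alone. The samples were chosen by their titles, and they are 10 of the 18 in the series. There were 6 titled HER2 DC1+aSEMA4D (the combination) and 4 titled HER2 DC1 Treatment, or HER2 DC1 Treatmen in replicate 1 (written DC1 below). Each arm gave 2 kinds of sample, titled Treated Tumor and Untreated Tumor, with 3 combination and 2 DC1 samples of each kind. The other 8 samples, 4 with anti-Semaphorin4D alone and 4 of the Untreated Control, enter only where the text says so. All hosts were female BALB/c mice carrying TUBO cells, a transplanted line from a HER2/neu-driven mouse mammary carcinoma. Treatment ran for 3 weeks, the dendritic cells were given into the tumor, and all tumors were taken at the same time and flash frozen. Mouse ages, the number of mice and whether a treated and an untreated tumor came from the same mouse are not stated by the labels, so p-values measure the spread between these samples.

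Dendritic cells take up antigen, present its peptides on MHC molecules and prime T cells. HER2 DC1 names a dendritic cell product directed at the HER2 oncoprotein, with DC1 the usual name for dendritic cells matured to favour T helper type 1 responses. Semaphorin 4D is a membrane-bound and shed guidance protein that signals through plexin B receptors, and in tumors it is known for restricting where immune cells enter. Activated T cells are known to display inhibitory receptors such as PD-1, and their product interferon gamma acts through JAK kinases to raise MHC genes and PD-L1 in the cells around them. Semaphorin 4D, its plexin receptors and HER2 itself were not analysed here.

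RNA was measured with a NanoString panel for metabolic pathways, which counts barcoded probes bound to RNA molecules, and values below are log2(count + 1) on the authors' scale unless stated. Averages over an arm are given with their SD (n = 6 for the combination and 4 for DC1), and differences between arms with their SE. Of 768 panel genes, 625 exceeded the negative-control limit (the mean plus 2 SD of the 8 negative probes of a sample) in at least 2 of the 10 samples, and 118 did so in none. Depth was 238079 to 909415 panel counts in the 8 columns for which it could be recovered, with the lowest in the first DC1 replicate of untreated tumors. Replicate 2 of DC1 in each kind of tumor lies in a column of whole numbers whose scaling is not settled, whereas every combination column is scaled to housekeeping genes. The negative-control limit of these DC1 columns was taken as unscaled, and statements about the limit rest on that. Replicate 2 of the treated-tumor combination stood apart. Along principal component 1, which held 59.7% of the variance, it scored 31.2, against 5.71 and 14.7 for its replicates and -19.31 to 0.61 for the others. The panel median of a sample was 7.79 ± 0.27 in the combination and 7.52 ± 0.22 with DC1 (SD, n = 6 and 4). This is 0.27 higher within kinds of tumor (exact permutation test over 100 arrangements, two-sided p = 0.03, smallest possible 0.01).

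Most panel genes were higher when the antibody was added to DC1, and genes that rose included transcripts of T cells, inhibitory checkpoints, MHC molecules and lysosomal enzymes. Genes of cell division mostly had differences below 0. The difference was above 0 for 505 of 768 genes (65.8%), with a median of 0.18. Centring each sample on its panel median moves that median to -0.09, and centring on the housekeeping genes moves it to 0.11, so values are also set beside the panel median below. Kind of tumor was a block in limma's fit of the 10 samples, with Benjamini-Hochberg adjustment over 768 genes and a threshold of 0.05. No gene passed in that fit (0%, smallest adjusted p = 0.0557), and 223 genes (29%) had an unadjusted p under 0.05, of which 186 were higher (24.2%) and 37 lower (4.82%). When all 18 samples shared the estimate of spread, 129 genes passed for the same comparison (16.8%), 114 higher (14.8%) and 15 lower (1.95%). Centring on the panel median changed this split to 63 higher and 71 lower, and centring on the housekeeping genes changed it to 96 higher and 30 lower. Of the 129 genes, 78 also passed with median centring and 107 with housekeeping centring. Among genes named below, median centring ended the calls of Atf7ip, Cat, Cpt1a, H2-D1, H2-DMa, Jak2, Kmo, Ncr1, Ogdh, Pdk2, Pfkm, Pik3r1, Rela, Tbx21 and Trp53, with adjusted p of 0.0516 (Kmo) to 0.707 (Pdk2). Housekeeping centring ended those of Cpt1a, H2-D1, H2-DMa, Kmo, Pdk2 and Tbx21. The 2 fits are called the 10-sample and 18-sample fits below, and a gene is said to have risen or fallen only where it passed in the 18-sample fit. The 18-sample fit takes a gene's spread to be equal in all groups, with antibody-alone and control samples included, and this was not tested. In both kinds of tumor at once, without overlap between arms, 109 genes were higher (14.2%) and 22 lower (2.86%). Over all 10 samples regardless of kind, 33 genes were higher without overlap (4.3%) and 11 lower (1.43%).

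Whether tumors of 1 arm and replicate number share a mouse is not stated. With arm and replicate number as a random block in the 18-sample fit (correlation 0.26), 45 of the 129 genes passed, 43 higher and 2 lower, where the lower genes were Nadk2 and Ube2t. Among genes named below, the block ended the calls of Cd274, Cd84, Cpt1a, Exo1, Fcrlb, H2-D1, H2-DMa, Jak2, Klrb1a, Kmo, Map2k3, Mybl1, Ncr1, Ogdh, Ogdhl, Pdk2, Pfkm, Rela, Slc3a1, Sod3, Tbx21, Tnfrsf4, Trp53, Txn1 and Ube2c, with adjusted p of 0.051 (Cd274) to 0.0901 (Pdk2).

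For several genes only some DC1 samples exceeded the negative-control limit, and folds are of the listed values unless a bound is given. Of the 4 DC1 samples, 1 exceeded it for Cd3e, Cd4, Pdcd1lg2, Ncr1, Gzmb, Hsd11b1, Kynu and Haao, 2 for Pdcd1, Sod3, Hk3 and Tnf, and 3 for Nkg7, Col6a1 and Jak2. For Klrb1a 1 of 6 combination and 3 of 4 DC1 samples exceeded it. The number of calls depended on single libraries. Left out of the 18-sample fit, replicate 2 of the treated-tumor DC1 group brought the calls down to 5 and replicate 1 of the treated-tumor combination brought them up to 207. The 5 genes were Lat, Mycl, Col6a1, Stat5a and Slc6a19, which also passed without any other of the 10 samples. Slc6a19 was below the negative-control limit in every sample and was named after its values were seen. Lat and Mycl were below it in every DC1 sample. In the 10-sample fit, 56 genes passed without replicate 1 of the treated-tumor combination, 43 without replicate 1 of the untreated-tumor combination and at most 2 without any other sample. All 129 genes kept their direction in every one of these refits. They were chosen for passing in the same samples, so this is no independent support.

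**Figure D1:**
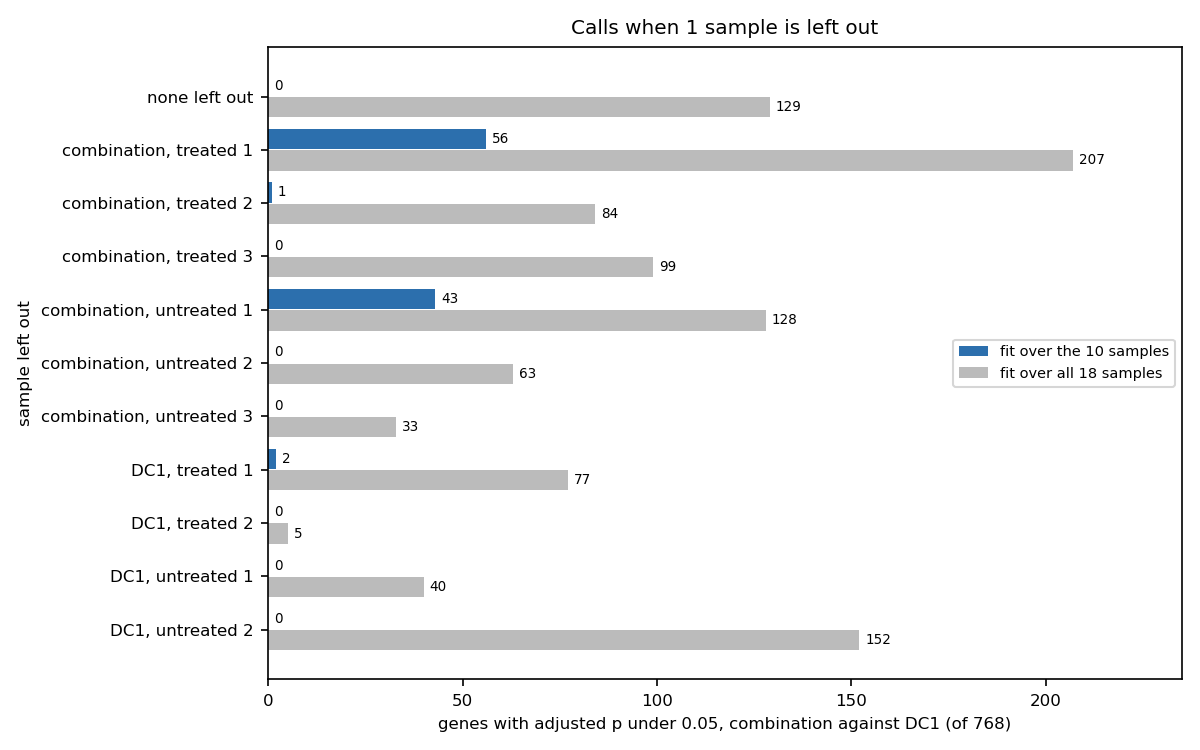
Bars show how many of 768 genes had an adjusted p under 0.05 (x axis) when the sample named on the y axis was left out, in the fit over the 10 samples (blue) and over all 18 samples (grey). Without a sample removed the counts are 0 and 129. The grey bars run from 5 without replicate 2 of the treated-tumor DC1 group to 207 without replicate 1 of the treated-tumor combination.

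Transcripts of T cell receptor signalling were higher in the combination. Lat, the adaptor that carries signals from the T cell receptor, had 6.54, 7.56 and 6.13 in treated tumors and 2.78, 5.39 and 5.33 in untreated tumors of the combination arm, against 3.37 and 4.0 in treated tumors and 1.81 and 2.32 in untreated tumors of the DC1 arm. Every combination sample lay above the DC1 samples of its kind, and no DC1 sample exceeded the negative-control limit, against 5 of 6 combination samples. The difference was 2.75 ± 0.52 (SE; adjusted p = 0.0557 in the 10-sample fit and 0.00815 in the 18-sample fit). Against the limit Lat was at least 1.01-fold higher over both kinds of tumor and at least 2.34-fold higher in treated tumors. In untreated tumors no rise against the limit was shown, since every combination value lay under the DC1 limits of 5.66 and 5.75. The 18-sample fit also took Lat's spread from antibody-alone and control samples, where Lat lay at or near the lowest value of the table, which lowers that spread. Cd3e, a chain of the CD3 complex, had 5.73, 7.59 and 6.78 in treated tumors and 4.37, 4.91 and 6.02 in untreated tumors of the combination arm, against 5.41 and 4.0 in treated tumors and 3.09 and 3.46 in untreated tumors of the DC1 arm. Its arms did not overlap within either kind, although the higher DC1 value lay above 2 combination values of the other kind of tumor. Of the DC1 samples 1 exceeded the limit, and Cd3e was 3.75-fold higher in listed values, or 1.2-fold with the other DC1 samples set to their limit (adjusted p = 0.0578 in the 10-sample fit and 0.0149 in the 18-sample fit). Cd4, the coreceptor of helper T cells, had 6.40, 8.74 and 7.48 in treated tumors and 5.22, 5.19 and 6.34 in untreated tumors of the combination arm, against 5.83 and 4.17 in treated tumors and 4.01 and 3.81 in untreated tumors of the DC1 arm. It too was separated within each kind, with replicate 2 of the treated-tumor combination highest, and 1 DC1 sample exceeded the limit. Cd4 was 4.31-fold higher in listed values, or 1.76-fold with the other DC1 samples set to their limit (adjusted p = 0.0578 in the 10-sample fit and 0.016 in the 18-sample fit).

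Of 17 measured T cell markers, 10 rose (all genes: 14.8%), none fell (1.95%), and 7 were higher in both kinds of tumor without overlap (14.2%). Their median difference was 1.40, against 0.18 for the panel. Without replicate 2 of the treated-tumor combination it was 1.13, and in the 8 scaled columns 0.94. Zap70, the kinase recruited to the receptor, was at least 1.31-fold higher than the limit in DC1 samples (adjusted p = 0.0581 in the 10-sample fit and 0.0149 in the 18-sample fit), but its arms overlapped in untreated tumors. Ptger4, a prostaglandin E2 receptor found on lymphocytes and myeloid cells, was at least 1.11-fold higher (adjusted p = 0.0557 in the 10-sample fit and 0.0132 in the 18-sample fit), without overlap in either kind. Stat5a, which acts downstream of interleukin 2, averaged 8.18 ± 0.37 in the combination and 7.37 ± 0.27 with DC1 and rose 1.76-fold (adjusted p = 0.0557 in the 10-sample fit and 0.00815 in the 18-sample fit). Cd8a, the coreceptor of cytotoxic T cells, and the regulatory T cell factor Foxp3 were below the limit in all 10 samples, so no change is given for them. In these bulk samples, more cells of a type and more RNA per cell cannot be told apart, and the same holds for fewer cells and less RNA.

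**Figure D2:**
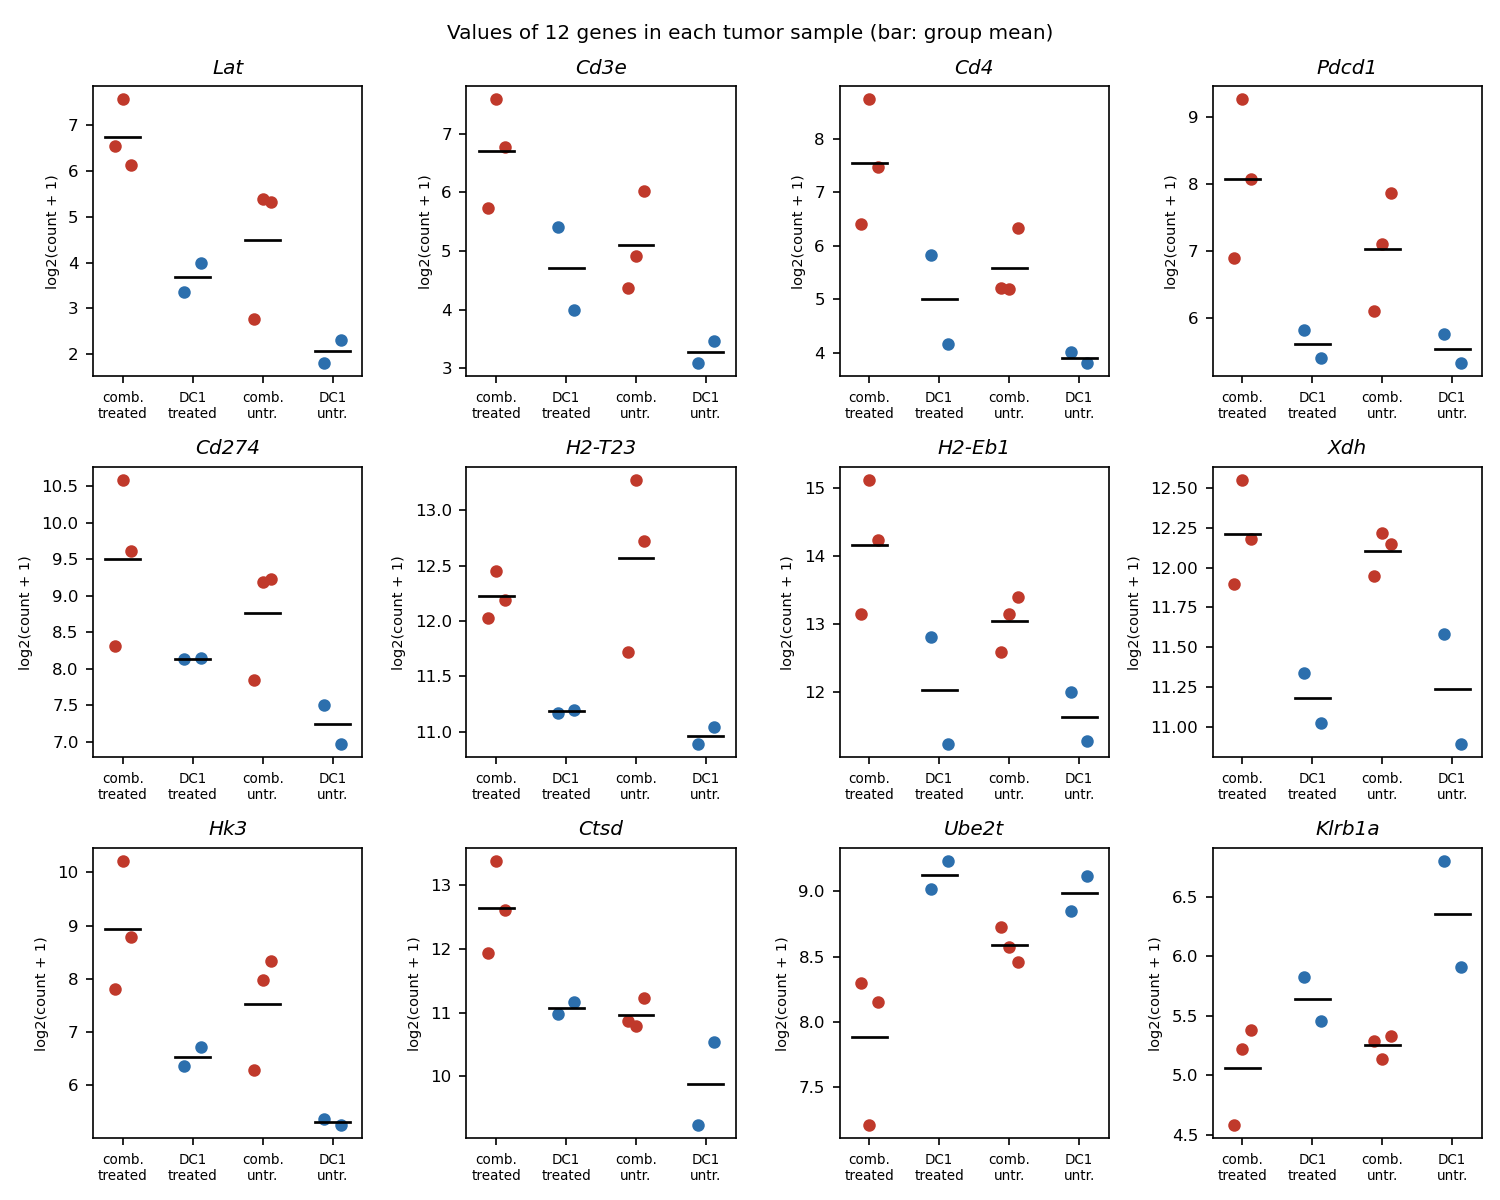
Each point is a tumor sample, in log2(count + 1), for the combination (comb., red) and DC1 (blue) in treated and untreated (untr.) tumors, and the bar is the group mean of 3 or 2 samples. Lat, Pdcd1, H2-T23 and Hk3 are higher in every combination sample than in the DC1 samples of the same kind of tumor, and Ube2t and Klrb1a are lower.

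Genes of cytotoxic lymphocytes mostly had differences above 0. Of 13 measured, 12 had a difference above 0 (all genes: 65.8%), 5 rose (14.8%) and 1 fell (1.95%), with a median of 0.91 (0.41 in the scaled columns). Nkg7, a protein of cytotoxic granules, had 8.13, 10.01 and 9.24 in treated tumors and 7.25, 8.15 and 9.0 in untreated tumors of the combination arm, against 7.96 and 5.93 in treated tumors and 7.29 and 5.73 in untreated tumors of the DC1 arm. It rose 3.74-fold (adjusted p = 0.0763 in the 10-sample fit and 0.0243 in the 18-sample fit), with arms that overlapped in untreated tumors only. Ncr1, a receptor of natural killer cells, rose 1.91-fold in listed values without overlap within either kind (adjusted p = 0.0763 in the 10-sample fit and 0.0235 in the 18-sample fit), with most DC1 samples under the limit. Tbx21, the T helper 1 factor T-bet, averaged 5.04 ± 0.80 in the combination and 3.71 ± 0.40 with DC1 and was below the limit in every DC1 sample and in 3 of 6 combination samples. Gzmb, the protease granzyme B, averaged 6.23 ± 1.06 in the combination and 4.98 ± 0.78 with DC1, and passed in neither fit (adjusted p = 0.159 in the 10-sample fit and 0.0826 in the 18-sample fit). Ifng was below the limit in all 10 samples. Klrb1a, a lectin-like receptor of natural killer cells, went the other way, with 4.58, 5.22 and 5.38 in treated tumors and 5.29, 5.14 and 5.33 in untreated tumors of the combination arm, against 5.83 and 5.46 in treated tumors and 6.80 and 5.91 in untreated tumors of the DC1 arm. All 6 combination values lay below all 4 DC1 values, and it fell to 0.558 of the DC1 level (adjusted p = 0.0763 in the 10-sample fit and 0.0286 in the 18-sample fit), but only 1 combination sample and 3 DC1 samples exceeded the limit.

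The inhibitory checkpoints moved with the T cell transcripts. Of 9 measured genes, 5 rose (all genes: 14.8%) and none fell, and all 5 were separated without overlap in both kinds of tumor (all genes: 14.2% higher). Pdcd1, which encodes PD-1, had 6.89, 9.27 and 8.08 in treated tumors and 6.10, 7.11 and 7.87 in untreated tumors of the combination arm, against 5.81 and 5.39 in treated tumors and 5.75 and 5.32 in untreated tumors of the DC1 arm. The lowest combination value, 6.10, was above the highest DC1 value, 5.81, and Pdcd1 rose 3.96-fold (adjusted p = 0.0581 in the 10-sample fit and 0.0139 in the 18-sample fit). Lag3, a receptor for MHC class II and other ligands, was likewise higher in all 6 combination samples and rose 2.71-fold (adjusted p = 0.0581 in the 10-sample fit and 0.0165 in the 18-sample fit). Cd274, which encodes the PD-1 ligand PD-L1, had 8.31, 10.58 and 9.61 in treated tumors and 7.85, 9.19 and 9.23 in untreated tumors of the combination arm, against 8.13 and 8.15 in treated tumors and 7.51 and 6.97 in untreated tumors of the DC1 arm. The separation in treated tumors was narrow, since the lowest combination sample was close to both DC1 samples, and the rise was 2.71-fold (adjusted p = 0.0763 in the 10-sample fit and 0.0292 in the 18-sample fit). Pdcd1lg2, which encodes the other PD-1 ligand, PD-L2, averaged 7.92 ± 2.34 in the combination and 5.01 ± 1.08 with DC1 and rose 7.54-fold in listed values, or 4.15-fold with the 3 DC1 samples under the limit set to it (adjusted p = 0.0684 in the 10-sample fit and 0.016 in the 18-sample fit). Ctla4, a competitor of the costimulatory receptor CD28, was below the limit in every DC1 sample and in 4 of 6 combination samples. It was at least 1.05-fold higher (adjusted p = 0.0578 in the 10-sample fit and 0.0221 in the 18-sample fit). The list's median was 1.44, or 1.17 without replicate 2 of the treated-tumor combination. Of 16 genes for costimulation and for signaling from the T cell receptor, 7 rose (all genes: 14.8%). Tnfrsf4, the costimulatory receptor OX40, fell to 0.626 of its DC1 level (adjusted p = 0.0763 in the 10-sample fit and 0.0413 in the 18-sample fit).

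Among MHC class I genes, which present peptides to CD8 T cells, H2-T23, H2-M3 and H2-D1 rose. H2-T23, which encodes the nonclassical class I molecule Qa-1, had 12.03, 12.45 and 12.19 in treated tumors and 11.72, 13.27 and 12.72 in untreated tumors of the combination arm, against 11.17 and 11.20 in treated tumors and 10.89 and 11.04 in untreated tumors of the DC1 arm. The arms did not overlap over all 10 samples, and H2-T23 rose 2.5-fold (adjusted p = 0.0557 in the 10-sample fit and 0.00815 in the 18-sample fit). H2-M3, which presents formylated peptides, averaged 8.35 ± 0.56 in the combination and 7.27 ± 0.35 with DC1 and rose 2.11-fold (adjusted p = 0.0578 in the 10-sample fit and 0.0178 in the 18-sample fit). The classical gene H2-D1 rose 1.57-fold (adjusted p = 0.0763 in the 10-sample fit and 0.0434 in the 18-sample fit). Of 7 measured genes of this list, 3 rose (all genes: 14.8%) and none fell, with a median of 0.65. Psmb10, a subunit of the immunoproteasome, stood at a difference of 0.80 ± 0.33 and passed in neither fit (adjusted p = 0.143 in the 10-sample fit and 0.0653 in the 18-sample fit).

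Interferons act on promoters through gamma-activated sites, called GAS (TTCNNNGAA), and interferon-stimulated response elements, called ISRE (searched here as GAAA, any 2 bases, GAAA). Promoter windows of 300 bases around the first listed start, from RefSeq (GRCm38.p6), are shown for the 2 MHC class I genes with the largest differences and for the interferon-responsive factor Irf1, because these hold such a match, in capitals. Both strands were searched, and the H2-T23 match is an ISRE read on the opposite strand. The windows are chr17:36032652-36032951, minus strand for H2-T23, chr17:37269984-37270283, plus strand for H2-M3 and chr11:53769764-53770063, plus strand for Irf1.
H2-T23: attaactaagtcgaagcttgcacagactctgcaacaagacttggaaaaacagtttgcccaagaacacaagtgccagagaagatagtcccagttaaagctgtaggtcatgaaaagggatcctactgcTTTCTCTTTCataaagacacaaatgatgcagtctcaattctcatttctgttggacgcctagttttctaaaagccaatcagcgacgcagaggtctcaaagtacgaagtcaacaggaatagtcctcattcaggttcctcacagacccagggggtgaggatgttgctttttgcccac
H2-M3: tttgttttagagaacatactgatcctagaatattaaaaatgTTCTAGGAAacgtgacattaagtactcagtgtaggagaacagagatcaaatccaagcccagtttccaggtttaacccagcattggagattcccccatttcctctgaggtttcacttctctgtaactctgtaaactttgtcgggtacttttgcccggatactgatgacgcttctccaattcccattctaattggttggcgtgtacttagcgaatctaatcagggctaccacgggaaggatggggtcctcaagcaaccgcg
Irf1: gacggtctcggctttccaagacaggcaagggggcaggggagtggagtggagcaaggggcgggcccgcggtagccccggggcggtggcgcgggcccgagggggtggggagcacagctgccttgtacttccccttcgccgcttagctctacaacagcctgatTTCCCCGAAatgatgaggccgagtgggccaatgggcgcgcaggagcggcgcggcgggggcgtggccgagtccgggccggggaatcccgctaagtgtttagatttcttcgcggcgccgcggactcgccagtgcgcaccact
Among the 7 MHC class I genes, all with a window, each motif matched in 1, and 2 of the 4 interferon-list genes with a window held a GAS match. A window was found for 604 of the 768 panel genes. A GAS match was in 8.47% of 27025 RefSeq genes, in 6.29% of these panel genes and in 8.05% of the 87 that rose and had a window. An ISRE match was in 3.49% of RefSeq genes, in 2.98% of panel genes and in 3.45% of those that rose. The shares in genes that rose were thus close to those in all RefSeq genes, and a match describes only these letters.

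Among MHC class II genes, carried by antigen-presenting cells, H2-Eb1 and H2-DMa rose. H2-Eb1, a class II beta chain, had 13.15, 15.11 and 14.23 in treated tumors and 12.59, 13.14 and 13.40 in untreated tumors of the combination arm, against 12.81 and 11.23 in treated tumors and 11.99 and 11.28 in untreated tumors of the DC1 arm. It was separated within each kind and rose 3.42-fold (adjusted p = 0.0581 in the 10-sample fit and 0.0149 in the 18-sample fit), with a difference of 1.20 in the scaled columns in place of 1.77. H2-DMa, a peptide-loading chaperone, rose 2.46-fold (adjusted p = 0.102 in the 10-sample fit and 0.0434 in the 18-sample fit), and H2-Aa, a class II alpha chain, passed in neither fit at a difference of 1.16 ± 0.47 (adjusted p = 0.141 in the 10-sample fit and 0.0635 in the 18-sample fit). Of 4 measured class II genes 2 rose (all genes: 14.8%), with a median of 1.23 that was 0.51 in the scaled columns.

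Genes of interferon signaling and of NF-kB gave further calls. Jak2, a kinase of the interferon gamma receptor, rose 1.73-fold (adjusted p = 0.0823 in the 10-sample fit and 0.041 in the 18-sample fit). Cxcl9, a chemokine that draws activated T cells, had 9.0, 10.79 and 11.04 in treated tumors and 8.79, 11.31 and 11.35 in untreated tumors of the combination arm, against 10.14 and 7.52 in treated tumors and 9.0 and 7.27 in untreated tumors of the DC1 arm. Replicate 1 of DC1 in each kind of tumor reached the lower combination values, so the arms overlapped, and the difference of 1.90 ± 0.73 passed in neither fit (adjusted p = 0.12 in the 10-sample fit and 0.0517 in the 18-sample fit). Irf1, an interferon-induced factor, differed by 0.74 ± 0.29 and passed in neither fit (adjusted p = 0.134 in the 10-sample fit and 0.0596 in the 18-sample fit). Of 13 genes of toll-like receptors and NF-kB, 3 rose. These were Nfkb2, an NF-kB subunit, at 2.12-fold (adjusted p = 0.0578 in the 10-sample fit and 0.0165 in the 18-sample fit), the inflammatory cytokine Tnf at 1.93-fold (adjusted p = 0.0763 in the 10-sample fit and 0.0172 in the 18-sample fit) and the NF-kB subunit Rela at 1.62-fold (adjusted p = 0.0812 in the 10-sample fit and 0.0434 in the 18-sample fit). Of 12 cytokines and chemokines 2 passed, Tnf and Ccl19, where 14.8% of all genes rose. Ccl19 was below the limit in all 10 samples, so no change is given for it.

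Lysosomal enzymes such as Ctsd and Gusb rose in the combination, whereas most macrophage markers did not pass the test. Of 6 macrophage and monocyte markers 1 rose, a share near the 14.8% of all genes. The marker that rose was Cd84, a receptor of the SLAM family, which averaged 9.04 ± 1.63 in the combination and 7.50 ± 1.11 with DC1 and rose 2.9-fold (adjusted p = 0.0763 in the 10-sample fit and 0.0235 in the 18-sample fit). Cd68, a lysosomal glycoprotein of macrophages, had 9.60, 12.35 and 11.10 in treated tumors and 9.15, 8.46 and 9.65 in untreated tumors of the combination arm, against 9.58 and 9.30 in treated tumors and 8.56 and 8.97 in untreated tumors of the DC1 arm. The high value is that of replicate 2 of the treated-tumor combination, the arms overlapped in untreated tumors, and Cd68 passed in neither fit (adjusted p = 0.231 in the 10-sample fit and 0.113 in the 18-sample fit). The median of the macrophage list was 0.71, and 0.46 without that sample. Of 15 lysosome and autophagy genes 8 rose and none fell, with a median of 0.95 (0.64 without that sample, 0.98 in the scaled columns). Ctsd, the protease cathepsin D, had 11.93, 13.38 and 12.61 in treated tumors and 10.86, 10.79 and 11.23 in untreated tumors of the combination arm, against 10.97 and 11.17 in treated tumors and 9.23 and 10.53 in untreated tumors of the DC1 arm. It was separated within each kind and rose 2.5-fold (adjusted p = 0.0581 in the 10-sample fit and 0.0169 in the 18-sample fit). Gusb, a glycan-degrading enzyme, rose 2.27-fold (adjusted p = 0.0581 in the 10-sample fit and 0.0165 in the 18-sample fit). The macrophage list had a median of 1.51 in treated and 0.22 in untreated tumors, and its part in the lysosomal differences was not tested.

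Markers of other cells were also examined. Of 3 dendritic cell markers 1 rose, Hsd11b1, a cortisone reductase, at 3.51-fold in listed values (adjusted p = 0.0557 in the 10-sample fit and 0.0109 in the 18-sample fit). Most DC1 samples were under the limit for Hsd11b1, and Flt3, a growth factor receptor of dendritic cell precursors, was below the limit in every DC1 sample. Of 5 fibroblast and vessel markers 2 rose, with a median of 1.36. Col6a1, a chain of collagen VI, had 9.86, 11.03 and 9.30 in treated tumors and 7.05, 6.73 and 7.56 in untreated tumors of the combination arm, against 7.27 and 7.08 in treated tumors and 5.27 and 6.43 in untreated tumors of the DC1 arm. Its arms were separated in both kinds and it rose 4.22-fold (adjusted p = 0.0557 in the 10-sample fit and 0.00815 in the 18-sample fit). Sod3, the extracellular superoxide dismutase, averaged 7.40 ± 1.66 in the combination and 4.70 ± 2.05 with DC1 and rose 6.48-fold in listed values, or 2.8-fold with the 2 DC1 samples under the limit set to it (adjusted p = 0.0586 in the 10-sample fit and 0.0235 in the 18-sample fit). Among 7 B cell genes only Fcrlb rose, where 14.8% of all genes did, and it was below the limit in every DC1 sample. Ms4a1, the B cell antigen CD20, differed by -0.97 ± 0.47 without passing (adjusted p = 0.195 in the 10-sample fit and 0.218 in the 18-sample fit). None of 9 neutrophil and mast cell markers passed.

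Genes of cell division mostly had differences below 0. Of 19 measured cell cycle genes, 16 had a difference below 0 (all genes: 263 of 768), 2 fell (1.95%) and none rose (14.8%). The list had a median of -0.46 (-0.29 without replicate 2 of the treated-tumor combination and -0.19 in the scaled columns). It was -0.73 in treated and -0.09 in untreated tumors, and the difference between kinds passed for no gene. Ube2t, a ubiquitin-conjugating enzyme of the Fanconi anemia pathway, had 8.30, 7.21 and 8.15 in treated tumors and 8.73, 8.57 and 8.46 in untreated tumors of the combination arm, against 9.02 and 9.23 in treated tumors and 8.85 and 9.12 in untreated tumors of the DC1 arm. All 6 combination values were below all 4 DC1 values, and Ube2t fell to 0.567 of its DC1 level (adjusted p = 0.0812 in the 10-sample fit and 0.0205 in the 18-sample fit). Ube2c, which serves the anaphase-promoting complex, fell to 0.652 of its DC1 level (adjusted p = 0.118 in the 10-sample fit and 0.0438 in the 18-sample fit). The mitotic factors Foxm1 and Cdc20 differed by -0.48 ± 0.21 and -0.46 ± 0.21 and passed in neither fit (adjusted p of the 18-sample fit = 0.0932 and 0.0842). Mki67, the proliferation antigen Ki-67, differed by 0.19 ± 0.28 (adjusted p = 0.666 in the 10-sample fit and 0.711 in the 18-sample fit), and its sign turned with median centring, to -0.08. Mybl1, a MYB-family transcription factor, fell to 0.646 of its DC1 level (adjusted p = 0.0897 in the 10-sample fit and 0.0423 in the 18-sample fit). Among 11 DNA damage repair genes, the exonuclease Exo1 fell to 0.63 of its DC1 level (adjusted p = 0.0915 in the 10-sample fit and 0.0423 in the 18-sample fit), whereas Trp53, which encodes p53, rose 1.58-fold (adjusted p = 0.106 in the 10-sample fit and 0.0423 in the 18-sample fit).

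**Figure D3:**
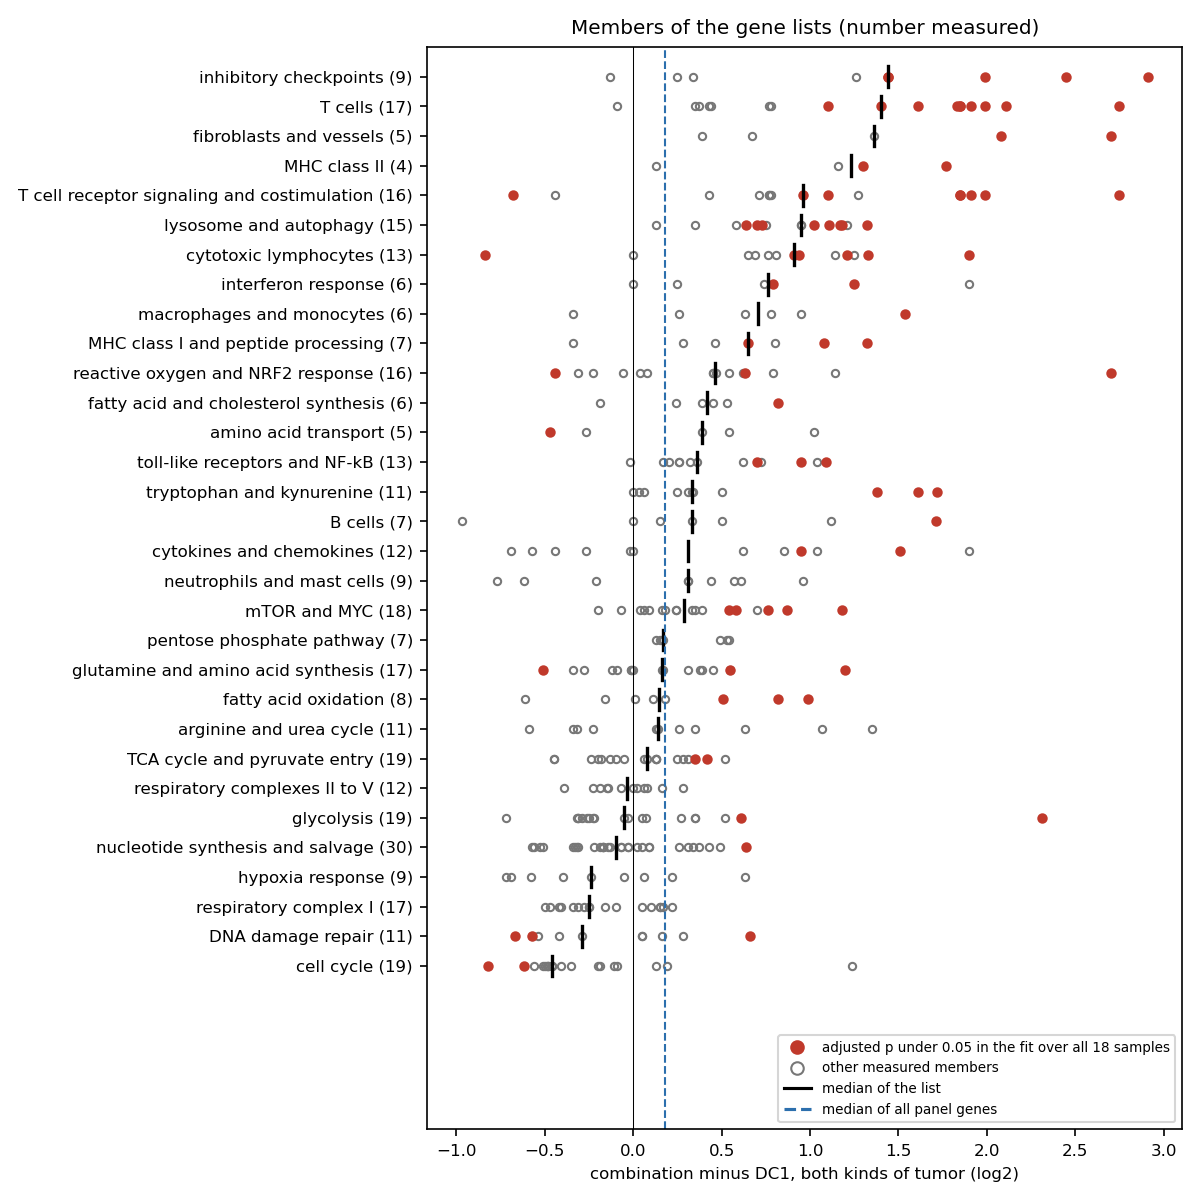
Each point is a measured member of a gene list, placed by its combination minus DC1 difference (log2, both kinds of tumor), with lists ordered by their median (black bar) and the number measured in brackets. Red points passed in the fit over all 18 samples. Medians run from 1.44 for inhibitory checkpoints to -0.46 for cell cycle, and the dashed line is the median of all panel genes, 0.18.

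Among genes of energy metabolism, Hk3, Pfkm, Ogdh and Pdk2 rose. Of 19 glycolysis genes 2 rose, a share near the 14.8% of all genes, and the list's median was -0.05. Hk3, a hexokinase of myeloid cells, had 7.81, 10.21 and 8.79 in treated tumors and 6.28, 7.97 and 8.34 in untreated tumors of the combination arm, against 6.36 and 6.71 in treated tumors and 5.36 and 5.25 in untreated tumors of the DC1 arm. It was separated within each kind, was below the limit in both untreated-tumor DC1 samples and rose 4.96-fold (adjusted p = 0.0557 in the 10-sample fit and 0.0129 in the 18-sample fit). Pfkm, a phosphofructokinase, rose 1.52-fold (adjusted p = 0.0763 in the 10-sample fit and 0.0346 in the 18-sample fit). Slc2a1, the glucose transporter GLUT1, differed by -0.72 ± 0.27 and Ldha, lactate dehydrogenase A, by -0.05 ± 0.37, and neither passed in either fit (adjusted p of the 18-sample fit = 0.0563 and 0.943). For Ldha, replicate 2 of DC1 was above replicate 1 in each kind of tumor, and the difference in the scaled columns was 0.74. None of 17 respiratory complex I genes, 12 genes of complexes II to V, 7 of the pentose phosphate pathway or 9 of the hypoxia response passed. Complex I had a median of -0.25. Of 19 genes of the TCA cycle and pyruvate entry, Ogdh, a subunit of the oxoglutarate dehydrogenase complex, and Pdk2, a kinase that inhibits pyruvate dehydrogenase, rose 1.34-fold and 1.27-fold (adjusted p of the 18-sample fit = 0.0395 and 0.0452; of the 10-sample fit 0.0812 and 0.118). The share of this list that rose was not above the 14.8% of all genes, and its median was 0.08, where the panel had 0.18.

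Calls were also made among lipid, kynurenine and growth-signaling genes. Of 8 fatty acid oxidation genes 3 rose, where 14.8% of all genes did. Acaa2, a mitochondrial thiolase, had 9.66, 10.20 and 9.68 in treated tumors and 9.46, 9.98 and 9.72 in untreated tumors of the combination arm, against 9.16 and 9.10 in treated tumors and 8.71 and 8.86 in untreated tumors of the DC1 arm. All 6 combination values lay above all 4 DC1 values, for a rise of 1.77-fold (adjusted p = 0.0557 in the 10-sample fit and 0.0132 in the 18-sample fit). Cpt1a, which moves fatty acids into mitochondria, rose 1.42-fold (adjusted p = 0.113 in the 10-sample fit and 0.0434 in the 18-sample fit). Of 11 tryptophan and kynurenine genes 3 rose (all genes: 14.8%). Kynu, which cleaves kynurenine, averaged 6.90 ± 0.86 in the combination and 5.18 ± 0.68 with DC1 and rose 3.29-fold (adjusted p = 0.0578 in the 10-sample fit and 0.0132 in the 18-sample fit), and Haao, a later enzyme of the route to NAD, averaged 6.37 ± 0.53 in the combination and 4.99 ± 0.70 with DC1 and rose 2.61-fold (adjusted p = 0.0578 in the 10-sample fit and 0.0149 in the 18-sample fit). Both folds are of listed values, since most DC1 samples were under the limit for Kynu and for Haao. Kmo rose as well but was below the limit in every DC1 sample, and Ido1, the enzyme at the head of the pathway, was below the limit in all 10 samples. Of 18 mTOR and MYC genes 5 rose (all genes: 14.8%). Mtor itself averaged 8.16 ± 0.35 in the combination and 7.29 ± 0.26 with DC1 and was higher in all 6 combination samples, by 1.83-fold (adjusted p = 0.0578 in the 10-sample fit and 0.0165 in the 18-sample fit), and Pik3r1, the regulatory subunit of PI3 kinase, was higher in all 6 by 1.69-fold (adjusted p = 0.0557 in the 10-sample fit and 0.00815 in the 18-sample fit). Median centring moves the median of that list to 0.02, in place of 0.29.

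Other genes with the smallest p values belong to redox, purine and chromatin biology. Xdh, the xanthine dehydrogenase that ends purine breakdown, had 11.90, 12.55 and 12.18 in treated tumors and 11.95, 12.22 and 12.15 in untreated tumors of the combination arm, against 11.34 and 11.02 in treated tumors and 11.58 and 10.89 in untreated tumors of the DC1 arm. No DC1 value reached the lowest combination value, and Xdh rose 1.93-fold (adjusted p = 0.0557 in the 10-sample fit and 0.00815 in the 18-sample fit). Cat, the peroxide-degrading catalase, averaged 11.40 ± 0.13 in the combination and 10.77 ± 0.13 with DC1 and rose 1.55-fold (adjusted p = 0.0578 in the 10-sample fit and 0.0132 in the 18-sample fit). Atf7ip, a chromatin cofactor, rose 1.53-fold (adjusted p = 0.0557 in the 10-sample fit and 0.016 in the 18-sample fit). Mycl, a MYC-family factor expressed in dendritic cells, averaged 5.54 ± 0.68 in the combination and 3.18 ± 0.94 with DC1 and was below the limit in every DC1 sample (adjusted p = 0.0557 in the 10-sample fit and 0.00815 in the 18-sample fit). The limits of those DC1 samples were 5.29 and 5.74 in treated and 5.66 and 5.75 in untreated tumors, so no rise of the mean against the limit was shown. Txn1, the redox protein thioredoxin, averaged 13.40 ± 0.13 in the combination and 13.84 ± 0.14 with DC1 and fell to 0.738 of its DC1 level (adjusted p = 0.0815 in the 10-sample fit and 0.0379 in the 18-sample fit). Nadk2, the mitochondrial NAD kinase, averaged 7.73 ± 0.17 in the combination and 8.35 ± 0.30 with DC1 and fell to 0.653 of its DC1 level (adjusted p = 0.0684 in the 10-sample fit and 0.0168 in the 18-sample fit). Map2k3, a kinase upstream of p38, and Slc3a1, a subunit of a cystine transporter, fell to 0.762 and 0.72 of DC1 (adjusted p of the 18-sample fit = 0.0308 and 0.0423; of the 10-sample fit 0.0857 and 0.0915). Aspa, an aspartoacylase, differed by -0.79 ± 0.24 and passed in neither fit (adjusted p = 0.0812 in the 10-sample fit and 0.104 in the 18-sample fit).

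The differences were then set side by side in the 2 kinds of tumor. Across the 768 genes, differences in treated and untreated tumors had the same sign for 547 (71.2%), with Pearson's r = 0.58 and Spearman's rho = 0.571. These are descriptions across genes from samples that share a platform and scaling, and genes are not independent replicates. Within treated tumors alone no gene passed (0%, smallest adjusted p = 0.186, and 154 with an unadjusted p under 0.05, 20.1%), and in the 18-sample fit 14 did. Within untreated tumors alone none passed either (0%, smallest adjusted p = 0.367, and 92 with an unadjusted p under 0.05, 12%), and none did in the 18-sample fit (smallest adjusted p = 0.0642). The T cell list had a median of 1.84 in treated and 0.68 in untreated tumors, the lysosome list 1.31 and 0.60, and the MHC class I list 0.60 and 0.80, where the panel had 0.20 and 0.20.

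**Figure D4:**
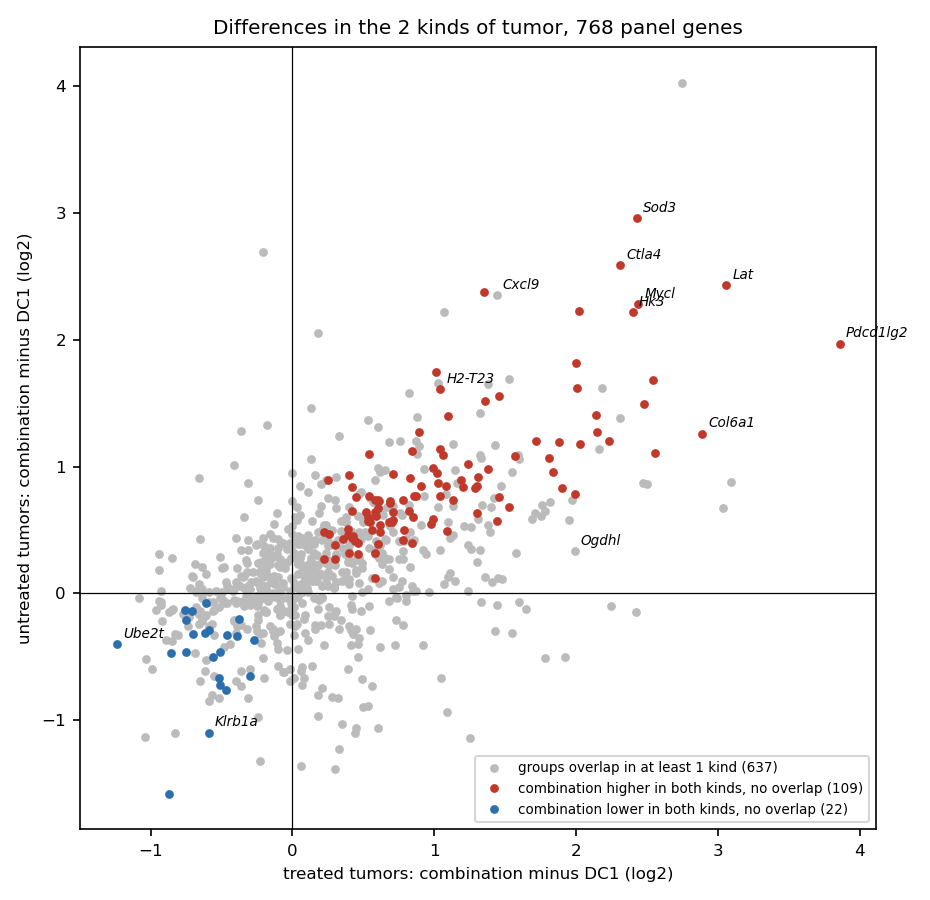
Each of the 768 points is a panel gene, with the combination minus DC1 difference (log2) in treated tumors on the x axis and in untreated tumors on the y axis. Colour marks genes whose arms did not overlap in either kind of tumor, 109 higher (red) and 22 lower (blue). Values are as listed, also below the negative-control limit, where Lat was in every DC1 sample. Lat, Pdcd1lg2 and Hk3 lie far above 0 on both axes.

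No gene's difference passed the test of unequal change between the 2 kinds (0%, limma's interaction, smallest adjusted p = 0.498), and 17 genes had an unadjusted p under 0.05 (2.21%). Among those with the smallest p, Ogdhl, a relative of Ogdh, was below the limit in every DC1 sample, so no difference is given for it. Col6a1 differed by 2.89 ± 0.53 in treated and 1.26 ± 0.53 in untreated tumors (adjusted p = 0.951). Ndufa4 and Ndufb4, proteins of the respiratory chain, differed by -0.85 ± 0.30 and -0.93 ± 0.27 in treated tumors and by 0.28 ± 0.30 and -0.07 ± 0.27 in untreated tumors. Arg1, the arginase of suppressive myeloid cells, differed by 1.24 ± 0.67 and 0.02 ± 0.67 (adjusted p = 0.951). For Arg1, the highest value, 15.15, was in replicate 2 of the treated-tumor combination, and its lowest combination value was 11.85. Nos2, the inducible nitric oxide synthase, was below the limit in every DC1 sample.

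The same antibody was given without DC1 in 4 samples, which were compared with the 4 Untreated Control samples. In that comparison no gene passed (0%), and 26 genes had an unadjusted p under 0.05 (3.39%), against 260 (33.9%) for the antibody added to DC1 in the same 18-sample fit. The median difference over the panel was 0.04, and the T cell, checkpoint and lysosome lists had medians of -0.09, -0.21 and 0.17. The cell cycle and DNA damage repair lists had medians of -0.25 and -0.28 for the antibody without DC1, where they had -0.46 and -0.29 with DC1. Lat stood at the floor of the table, a log2 value of 1, in all 4 antibody samples, and in the control samples at 1 in 3 and at 1.84 in replicate 2 of the untreated tumor. Mycl and Cd3e were below the limit in all 8 of these samples, so no excess is given for them or for Lat. The 18-sample fit also took its spread from these samples, so its p-values for these genes rest in part on undetected values. For Col6a1 the antibody gave 1.88 ± 0.47, adjusted p = 0.153 more with DC1 than without. Ass1, an enzyme of arginine synthesis, differed by -0.59 ± 0.21 with DC1 and 0.30 ± 0.21 without (-0.89 ± 0.28, adjusted p = 0.176 for the excess). The excess passed for no gene of 768 (0%, smallest adjusted p = 0.153), and 131 genes had an unadjusted p under 0.05 (17.1%), 109 of them with a higher difference in the presence of DC1 (14.2%). The Pearson correlation of the 2 sets of differences across 768 genes was 0.134 (Spearman's rho = 0.156), and 58.2% had the same sign. The 2 differences share no sample.

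**Figure D5:**
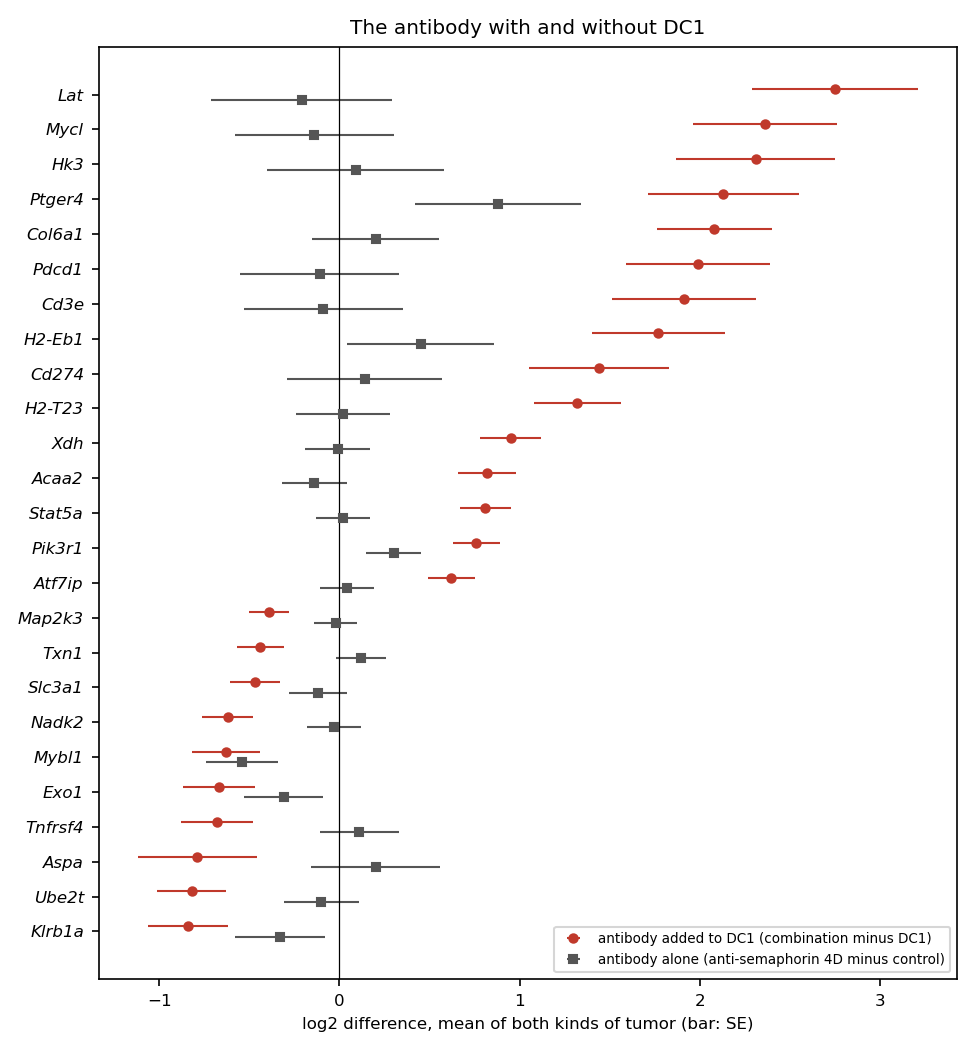
Red circles show the log2 difference of the combination minus DC1 and grey squares that of anti-semaphorin 4D alone minus control, each the mean over both kinds of tumor, with bars for the SE in the fit over all 18 samples. Values are as listed, also where a gene is below the negative-control limit, as Lat is in every sample without the combination. H2-T23 stands at 1.32 with DC1 and 0.02 without, and the grey squares lie between -0.54 (Mybl1) and 0.88 (Ptger4).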

How the data were processed

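The samples, gene lists and alternatives were chosen with earlier results of these data known, so no list is independent support. The authors deposited log2(count + 1) values, as the values themselves show. Per the submitters' processing notes limma was used; no source used here gives its role. Of the 18 columns, 12 are whole counts (within 0.05, up to 500) times a factor that set the mean of 6 housekeeping genes to 10.4825 to 10.483. In the 6 columns of whole numbers the mean of the same genes was 10.4858 to 10.5205. Whether these columns were scaled and then rounded was not tested. Control probes carry no factor, so a sample's negative-control limit was multiplied by it. For columns of whole numbers a factor of 1 was assumed. Bounds and counts of DC1 samples above the limit rest in part on this assumption.

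The log2 values entered limma 3.58.1 (R 4.3.3; lmFit and eBayes, two-sided, Benjamini-Hochberg over 768 genes, threshold 0.05) as deposited. The 10-sample fit had kind of tumor as a block (7 residual and 2.83 prior degrees of freedom), and the 18-sample fit had 8 group means (10 and 3.02). The procedure was run on simulated data with independent samples and the same spread of a gene in all groups, so the simulation could not test those assumptions. A gene under the limit throughout an arm has a bound only: for "at least N-fold", each dim sample enters at its limit, or at the gene's value where that is above the limit, and the brighter arm at its measured mean. Because of the pseudocount, folds of weakly expressed genes come out too small. Lists were described by counts and medians. Named genes were those with the smallest p in each direction (10 for the main comparison, 3 for the others), up to 4 members of each list and a set of immune and metabolic genes. Some of these are not reported here. Promoters came from the RefSeq table, and 767 of 768 symbols matched RefSeq. Software also included Python 3.11.15, numpy 2.4.6, pandas 2.3.3 and matplotlib 3.10.9.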

Additional observations from a re-analysis of the deposited data

How the results depend on the processing

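For the combination against DC1 in both kinds of tumor, 0 genes passed in the fit of the 10 samples. The count was also 0 without the block for kind of tumor, with arm and replicate number as a random block, and with median centring, housekeeping centring or quantile normalization. It was 36 with a filter that kept genes above the negative-control limit in 2 or more samples, 8 with a pseudocount of 16, 37 with limma's trend and robust options, 3 in the scaled columns only, 129 with all 18 samples and 122 with kind of column as a term in that fit. Leaving out each sample gave 0 to 56 genes, and 5 to 207 in the fit over all 18 samples (40, 152, 128, 63, 33, 77, 84 and 99 between these, as the bar plot of calls shows). In that fit median centring gave 134 genes (63 higher and 71 lower), housekeeping centring 126 (96 and 30), and the scaled columns alone 13; these were chosen after seeing the data. All 129 genes kept their direction in every setting where they were tested, which their choice from the same samples made likely. With arm and replicate number as a random block, which treats a treated and an untreated tumor of the same number as related, the smallest adjusted p was 0.136 in the fit of the 10 samples (correlation 0.315), and 45 genes passed in that of all 18 (also chosen after seeing the data). Deviations of such tumors from their group means correlated at 0.359, -0.0589 and 0.0206 in the combination. With DC1 they correlated at 0.52 and 0.52, which are equal by construction, since 2 samples in a group have mirrored deviations. Whether replicate numbers pair samples across the arms is not stated. With 2 DC1 samples of each kind, correlations of deviations cannot decide it. Deviations of same-numbered samples correlated at -0.289 and -0.318 in treated and -0.179 and 0.0675 in untreated tumors. With a replicate block 11 genes passed in the fit of the 10 samples and 68 in that of all 18. Within treated tumors 14 genes passed with all 18 samples. Within untreated tumors 12 passed in the scaled columns and 0 to 12 when each sample was left out. For unequal change between kinds, 1 gene passed in the scaled columns and 0 to 3 when each sample was left out, and for the antibody with against without DC1, 0 to 4 when each sample was left out.

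Ldha (-0.05) reversed to 0.09 with a replicate block, also with all 18 samples, to 0.31 with kind of column as a term and to 0.74 in the scaled columns in either fit, and to 0.04, 0.19 and 0.32 without a sample, in a range of -0.44 to 0.32 (0.05, 0.25 and 0.45 with all 18). Mki67 (0.19) reversed to -0.08 with median centring in either fit, to -0.07 with quantile normalization, and to -0.12 without replicate 1 of the untreated-tumor DC1 group (-0.15 with all 18 samples), in a range of -0.12 to 0.40 over samples left out. The cause was not tested. Replicates number 2 or 3 a group, and 118 genes were below the negative-control limit in all 10 samples.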

Other observations

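In 11 of 768 genes (1.43%) the arms moved opposite ways in treated and untreated tumors without overlap in either kind, and 6 of these were above the negative-control limit in at least 2 of the 10 samples. Among 19 housekeeping genes of the panel, 1 rose and 2 fell in the fit over all 18 samples, with a median difference of 0.03. Trf, which encodes the iron carrier transferrin, averaged 16.22 ± 0.38 (log2, SD, n = 6) in the combination and 16.73 ± 0.19 (n = 4) with DC1, a difference of -0.50 that passed in neither fit (limma, adjusted p = 0.143 with 10 samples and 0.0758 with all 18).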
